A study of Mus musculus with 2 samples.

Results

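The chemokine receptor CCR2 and 4 ligands that recruit monocytes through it, encoded by Ccl2, Ccl7, Ccl8 and Ccl12, were followed across the cells of MC38 tumors. These 5 genes were taken by symbol from the 32285 genes of each matrix, and all 5 were detected in both libraries. MC38 is a mouse colon carcinoma line, grown here under the skin of wild-type mice. The Control library held CD45+ cells sorted from untreated tumors, and the IR library held CD45+ cells sorted 4 days after tumors received 20 Gy of ionizing radiation in 1 dose. Tumors were pooled within each library, so each group was 1 library, and the differences between groups have no replicate check. The question behind the comparison was how the immune microenvironment of a tumor looks after an ablative dose, and the present values show which cells carried the RNA of each ligand and of the receptor.

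CCR2 is a G protein-coupled receptor that leads classical monocytes out of the bone marrow and into inflamed tissue and tumors. CCL2 (MCP-1) and CCL7 (MCP-3) are its classical ligands, CCL12 (MCP-5) is a mouse ligand of the same family, and CCL8 (MCP-2) in mice also acts through CCR8. Macrophages, fibroblasts and endothelial cells are known producers of these ligands, and monocytes that mature into macrophages in a tissue lower CCR2.

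The 4 ligand genes lie side by side in the CC chemokine cluster of mouse chromosome 11, all on the plus strand. In GENCODE vM21 (GRCm38, the same assembly as the mm10 build of the files) Ccl2 (ENSMUSG00000035385) spans chr11:82035571-82037453, Ccl7 (ENSMUSG00000035373) chr11:82045712-82047525, Ccl12 (ENSMUSG00000035352) chr11:82101845-82103400 and Ccl8 (ENSMUSG00000009185) chr11:82115185-82116799. The stretch from the start of Ccl2 to the end of Ccl8 is 81.2 kb, and Ccl11, an eosinophil chemokine, lies inside it. Ccr2 (ENSMUSG00000049103) is on chromosome 9, at chr9:124101950-124113557. The CC chemokines are named for 2 adjacent cysteines, and the codons of that pair show how alike the members are. Below are 45 bases of each coding sequence (GENCODE vM21), 5′ to 3′, with the 2 cysteine codons in capitals.
Ccl2: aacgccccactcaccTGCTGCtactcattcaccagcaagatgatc
Ccl7: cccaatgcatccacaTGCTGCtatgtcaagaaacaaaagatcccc
Ccl8: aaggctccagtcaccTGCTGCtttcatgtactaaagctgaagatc
Ccl12: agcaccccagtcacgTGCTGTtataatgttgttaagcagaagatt
Ccl12 spells the second cysteine with another codon than its 3 neighbours. Over the aligned coding bases, identity between the 4 ligands ran from 67.9% (Ccl7 and Ccl12) to 70.7% (Ccl8 and Ccl12). The counts are those the authors' counting assigned to each gene, and sharing of reads between these relatives was not tested.

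Ccl12 and Ccl8 are adjacent in the cluster and differed in their cells and in their values after IR, so the 250 bases before each start (RefSeq, GRCm38.p6, plus strand) are shown. Capitals mark the match to TATAAA.
Ccl12, chr11:82101595-82101844: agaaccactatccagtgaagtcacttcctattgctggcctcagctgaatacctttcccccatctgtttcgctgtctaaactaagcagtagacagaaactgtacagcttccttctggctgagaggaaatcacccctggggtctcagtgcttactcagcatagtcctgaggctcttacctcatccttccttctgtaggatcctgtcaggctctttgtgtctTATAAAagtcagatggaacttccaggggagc
Ccl8, chr11:82114935-82115184: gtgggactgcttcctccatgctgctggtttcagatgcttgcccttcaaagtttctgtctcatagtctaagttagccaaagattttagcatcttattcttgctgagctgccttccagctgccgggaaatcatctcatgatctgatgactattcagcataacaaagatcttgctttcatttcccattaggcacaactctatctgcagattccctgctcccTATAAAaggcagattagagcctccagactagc
The match began 31 bases before the start of Ccl12 and 32 bases before that of Ccl8, and 12.4% of the 32851 promoters in the table held TATAAA on either strand in these 250 bases. The best local alignment of the windows matched 144 of 213 aligned bases (67.6%). Neither window held TTCNNNGAA (a STAT site, in 7.02% of all windows), TGANTCA (an AP-1 site, 6.75%), GAAA and GAAA set 2 bases apart (an interferon-stimulated element, 2.98%), GGG and CC set 5 bases apart (an NF-kB site, 45.8%) or GGGCGG (a GC box, 32.7%) on either strand, and no match says only that these letters are not in the window.

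Kept cells numbered 4398 in Control and 3205 in IR, with medians of 7002 and 7864 UMIs (captured RNA molecules). Cells were assigned to populations by the UMIs of marker genes, with the 5 members left out of every marker list. The monocyte gate (Ly6c2, Plac8, Ms4a4c, Chil3, Hp and F13a1 above C1qa, C1qb and C1qc) held 474 Control and 922 IR cells, and the macrophage gate (the reverse) 1759 and 375. The fibroblast gate (Col1a1, Col1a2, Col3a1, Dcn, Sparc, Lum and Pdgfrb) held 74 and 78 cells, called fibroblasts below. Their level of Ptprc, which encodes CD45, was 3.65 and 2.14 CPM (UMIs scaled to a total of 1000000 per population), against 463 and 488 over all kept cells, so the marker of the sort was nearly absent from them. The sample records call the cells CD45+CD11b+Ly6Chi, while T cell (444 and 254), NK cell (373 and 424), dendritic and neutrophil gates were also filled. The cDC2 gate (Cd209a, Flt3 and Clec10a) had medians of 24.1 and 26.5 monocyte-list UMIs per 10000. Those of the monocyte gate were 63.0 and 65.2, and those of mature dendritic cells 0. Whether the cDC2 gate held only cDC2 was not tested, and cDC2 below names the gate. No cell passed the endothelial gate or the tumor cell gate (Epcam, Krt8, Krt18, Krt19 and Cldn4). Fibroblast-gate cells had medians of 39.8 and 30.0 fibroblast-list UMIs per 10000, at median depths of 19761 and 34592 UMIs. Whether some of them were carcinoma cells without the tumor cell markers was not tested. Cells passing the gates of more than 1 lineage (297 and 230) were set apart, with exceptions for the monocyte/macrophage gate. Cells that passed a dendritic gate were kept there even if they also passed the monocyte/macrophage gate. The same held for neutrophil-gate cells with more neutrophil than monocyte and macrophage marker UMIs. How many cells these exceptions concern was not counted. Of cells on the monocyte to macrophage split, 6.61% in Control and 10.3% in IR lay within 2-fold of the cut. Levels below are in CPM, parentheses after a level hold its exact Poisson 95% interval, and ratios carry exact conditional 95% intervals. They cover counting error only, not differences between tumors or the uneven spread of a gene over cells.

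Over all kept cells, Ccl2 stood at 549.6 in Control and 1124 in IR, 2.04-fold higher (2.01 to 2.08). Ccl7 stood at 333 and 527, 1.58-fold higher, and Ccl12 at 157 and 166, 1.05-fold higher. Ccl8 went the other way, 210.1 in Control and 26.0 in IR, 8.07-fold lower (7.52 to 8.67). Ccr2 was 402 in Control and 289.5 in IR, 1.39-fold lower (1.35 to 1.43). By a rule of a log2 ratio of at least 1 in size after adding 10 to each level, 1 member was higher (Ccl2) and 1 lower (Ccl8), while 0.693% of 13991 genes were higher and 0.286% lower.

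Part of each overall value depends on which cells were present. With the gate levels of Control and the gate shares of IR, Ccl2 would be 545 and with IR levels and Control shares 1134, close to the level of the library whose gate levels were used. Ccl12 showed the other extreme. Its overall levels of 157 and 166 were close, but Control levels with IR shares gave 85.2 and IR levels with Control shares gave 215. Ccl7 gave 256 and 615 in these mixtures, below its Control value of 333 and above its IR value of 527. Ccl8 gave 123 with Control levels and IR shares and 36.1 with IR levels and Control shares. Ccr2 gave 399 and 304, close to the library whose levels were used.

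**Figure D1:**
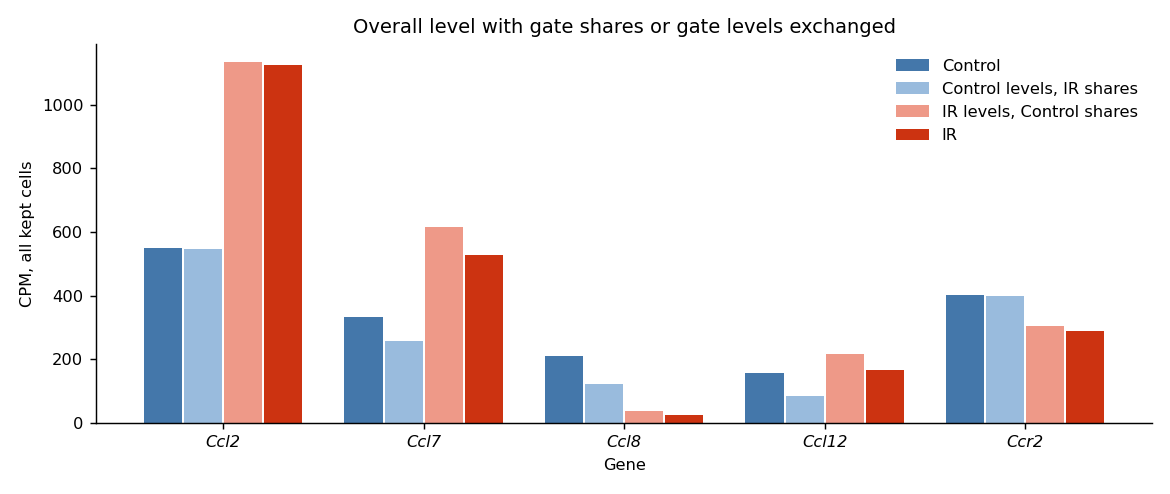
Overall level of each gene (CPM, all kept cells, linear axis from 0) as measured in Control and IR, and recomputed with the gate levels of one library and the gate shares of UMIs of the other. For Ccl2 the bars follow the levels (545 with Control levels and 1134 with IR levels), while for Ccl12 the mixed bars, 85.2 and 215, lie outside the measured pair of 157 and 166.

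Ccl2 was found in monocytes, macrophages, fibroblasts and mast cells alike. In Control its level was 1354 in the mast cell or basophil gate, 1126 in fibroblasts, 739.6 in the monocyte gate, 689 in other monocyte/macrophage cells, 686 in the macrophage gate, 313 in nonclassical monocytes, 285 in cDC2, 69.6 in T cells and 17.3 in NK cells. The neutrophil gate stood at 1457, but 97.6% of its 85 UMIs came from 3 of 30 cells. Without the 3 cells with most Ccl2 UMIs in each gate, the Control level was 180.2 in the mast cell or basophil gate, 638 in fibroblasts, 675 in the monocyte gate and 667 in the macrophage gate, so the first place of the small gates rested on a few cells. In IR the monocyte gate stood at 1812 (1784 to 1841), fibroblasts at 1772 (1723 to 1822), the macrophage gate at 1392, other monocyte/macrophage cells at 908, the mast cell or basophil gate at 827, neutrophils at 781, cDC2 at 519 and nonclassical monocytes at 413. The intervals of the monocyte gate and fibroblasts overlapped in IR, and both lay above those of the other lineages, while without the 3 top cells of each gate fibroblasts (1387) stood below the monocyte gate (1720). The ratio IR over Control was 2.45 (2.34 to 2.56) in the monocyte gate, 2.03 (1.97 to 2.09) in the macrophage gate, 1.57 (1.49 to 1.66) in fibroblasts and 1.82 (1.48 to 2.24) in cDC2. In IR cDC2, 84.4% of the Ccl2 UMIs came from 3 of 50 cells, and without the 3 top cells the cDC2 levels were 170.0 and 90.3, a ratio of 0.531 in the other direction. The macrophage gate held 56.0% of all Ccl2 UMIs in Control and 15.7% in IR, and the monocyte gate 10.9% and 42.2%. Of the UMIs of every gene, the macrophage gate held 44.9% and 12.7% and the monocyte gate 8.08% and 26.1%. Fibroblasts held 9.03% and 13.3% of the Ccl2 UMIs and 4.41% and 8.45% of the UMIs of every gene.

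At a fixed depth of 1000 UMIs per cell, a Ccl2 UMI was found in 32.9% of the Control monocyte gate and 50% of the IR gate, and in 34.7% and 43.2% of macrophage-gate cells. Without thinning the monocyte-gate shares were 57.0% and 76.1%. NK cells, which should lack Ccl2, gave 2.68% and 4.25% at the same depth, so the shares in monocytes and macrophages stood above this background. Fibroblasts gave 41.9% and 51.3%, with overlapping intervals.

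**Figure D2:**
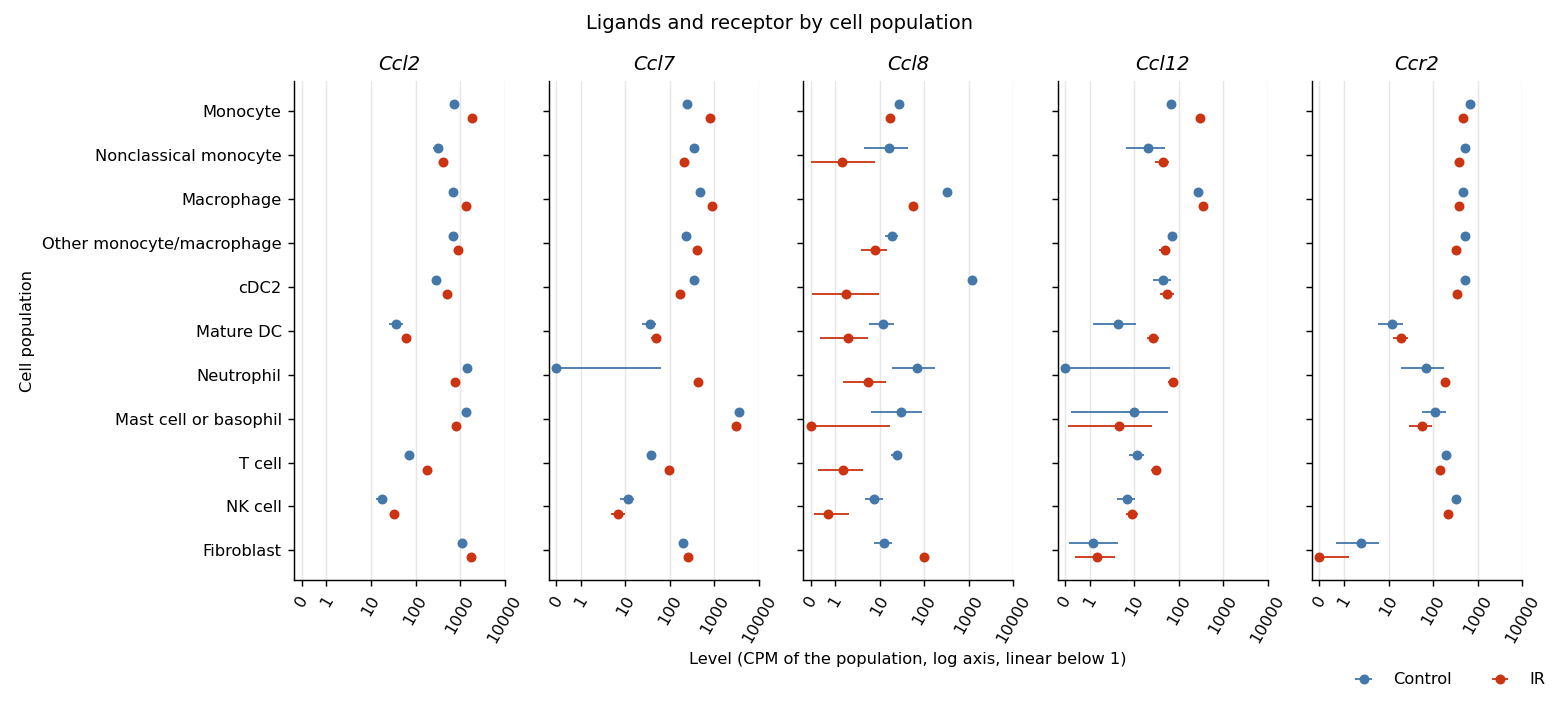
Level of each gene (CPM of the population, log axis, linear below 1) in 11 gated populations of the Control and IR libraries, with exact Poisson 95% intervals as lines. The points of Ccl8 are lower in IR in the populations shown except fibroblasts (12.2 and 98.9), and Ccr2 is near 0 in fibroblasts and below 20 in mature dendritic cells.

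Ccl7 had its highest level in a handful of mast cells. The mast cell or basophil gate held 36 Control and 60 IR cells, at Ccl7 levels of 3567 and 3101 CPM. Within it, Tpsb2, a mast cell tryptase, was found in 7 and 12 cells. All 7 of these Control cells and all 12 IR cells had Ccl7, with 352 of the gate's 353 UMIs in Control and 670 of 671 in IR. Among the 29 and 48 cells with no Tpsb2, 1 and 1 had a single Ccl7 UMI. Those cells carried the basophil protease Mcpt8 in 20 of 29 and 36 of 48 cells. Ccl7 reached 17378 CPM in the Control Tpsb2 cells and 16208 CPM in the IR ones. Ccl2 followed the same line, with 134 of the gate's 134 UMIs in the Tpsb2 cells in Control and 173 of 179 in IR, while Ccl8, Ccl12 and Ccr2 had 0 UMIs in these cells in both libraries. The split by Tpsb2 was made after the Ccl7 values were seen. The gate held 2.85% and 3.84% of all Ccl7 UMIs and 0.266% and 0.653% of the UMIs of every gene.

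In the larger populations, Ccl7 stood at 479 in the Control macrophage gate, 350.3 in nonclassical monocytes, 341 in cDC2, 239 in the monocyte gate, 226 in other monocyte/macrophage cells and 199 in fibroblasts. Nonclassical monocytes and cDC2 did not differ beyond their intervals. In IR the macrophage gate (870.2) and the monocyte gate (815) led, followed by neutrophils (417), other monocyte/macrophage cells (409), fibroblasts (256) and nonclassical monocytes (213). In the IR neutrophils 53.2% of the Ccl7 UMIs came from 3 of 194 cells, and without them the level was 206. The ratio was 3.40 (3.15 to 3.68) in the monocyte gate, 1.82 (1.75 to 1.89) in the macrophage gate and 1.29 (1.13 to 1.47) in fibroblasts. It was below 1 in nonclassical monocytes, 0.607 (0.463 to 0.802), and in cDC2, 0.49 (0.377 to 0.634), where 3 cells held 87.1% and 67.3% of the Control UMIs. Without the 3 top cells of each library the ratio turned to 1.68 in nonclassical monocytes (levels of 49.9 and 84.0), while in cDC2 it was 0.109 (123 and 13.4). The fibroblast levels without them were 106 and 171. The monocyte gate held 5.80% of the Ccl7 UMIs in Control and 40.4% in IR, and the macrophage gate 64.5% and 20.9%, beside 8.08% and 26.1%, and 44.9% and 12.7%, of the UMIs of every gene. At 1000 UMIs of depth, the monocyte-gate cells with a Ccl7 UMI were 9.70% (Control) and 24.8% (IR), against 2.14% and 1.18% of NK cells.

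Ccl8 had its highest level in resident-like macrophages in both libraries. In IR that level was 942 in 17 cells, and 301 without the 3 top cells. At a far lower total in IR, fibroblasts and macrophages held the largest shares of its UMIs. In Control, 70.8% of its 7823 UMIs were in the macrophage gate, and 38.7% were in resident-like macrophages (Lyve1, Folr2, Cbr2, Cd163, Stab1 and Mrc1), which were 4.71% of the cells. Their level was 2510 (2422 to 2601), above 1150 in cDC2, 331 in the whole macrophage gate and 27.3 in the monocyte gate. Of the cDC2 UMIs, 67.8% came from 3 of 61 cells, and without these 3 the level was 409. In IR, 862 UMIs were found over all cells. The macrophage gate stood at 55.5, 5.97-fold lower (5.24 to 6.84), and cDC2 had 1 UMI in 50 cells, against 556 in 61 Control cells. The fibroblast gate ran against this, with 20 UMIs in Control and 277 in IR, levels of 12.2 (7.44 to 18.8) and 98.9 (87.6 to 111.3), 8.12-fold higher (5.16 to 13.5), a log2 ratio of 3.02. With a minimum of 500 or of 2000 UMIs per cell in place of 1000, the log2 ratio was 1.89, below that interval. Without thinning, 18.9% of Control and 47.4% of IR fibroblasts had a Ccl8 UMI, at median depths of 19761 and 34592 UMIs, and in 2.70% and 7.69% at 1000 UMIs, where the intervals overlapped. Without the 3 cells with most Ccl8 UMIs in each library the fibroblast levels were 7.61 and 58.2. Fibroblasts held 0.256% of the Ccl8 UMIs in Control and 32.1% in IR, and in IR the macrophage gate held 27.0%, the monocyte gate 17.2% and resident-like macrophages 13.2%. Cells that passed more than 1 gate held 17.8% in Control and 14.6% in IR. The 148 UMIs of the IR monocyte gate were 81.1% from 3 of 922 cells.

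Free RNA was measured in droplets without a cell, where Ccl8 stood at 624 CPM in Control and 45.3 CPM in IR. If 10% of the UMIs of a population were free RNA, that alone would give 62.4 in Control and 4.53 in IR. The Control values of Ccl8 in the monocyte gate (27.3), T cells (23.9), NK cells (7.56) and fibroblasts (12.2) were all below 62.4. The share of 10% was assumed. Values below 62.4 mean that these gates held less than 10% of free RNA, if the droplets show its make-up. The true share was not measured, so whether these values are background was not tested. In the Control monocyte gate, 39.0% of the Ccl8 UMIs came from 3 cells. The IR value in fibroblasts (98.9) was above the IR figure of 4.53, and that of Control resident-like macrophages was above 62.4. Ccl2 in empty droplets was 642 and 1125, Ccl7 365 and 581, Ccl12 244 and 259.9 and Ccr2 319 and 291.

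Ccl12 was found mostly in monocytes and macrophages. The monocyte/macrophage class held 82.0% of its UMIs in Control and 75.6% in IR, and most others lay in cells that passed more than 1 gate (12.8% and 18.8%). In Control the macrophage gate stood at 266 and the monocyte gate at 65.8. In IR they stood at 347 and 301, so the ratio was 4.57 (3.96 to 5.31) in the monocyte gate and 1.30 (1.23 to 1.38) in the macrophage gate. In the IR macrophage gate 19.5% of the Ccl12 UMIs came from 3 of 375 cells. Without the 3 top cells of each gate and library, the ratio was 6.30 in the monocyte gate and 1.12 in the macrophage gate (252 and 282). Fibroblasts had 2 and 4 UMIs of Ccl12 (levels of 1.22 and 1.43), where Ccl2 stood at 1126 and 1772, and the Tpsb2 mast cells had 0. At 1000 UMIs of depth, a Ccl12 UMI was found in 4.22% of the monocyte gate in Control and 13.7% in IR. The macrophage gate had 263 such cells of 1759 in Control and 67 of 375 in IR (17.9%, 2.9 percentage points more), and NK cells gave 1.07% and 0.472%. The monocyte gate held 3.38% of the Ccl12 UMIs in Control and 47.4% in IR, beside 8.08% and 26.1% of the UMIs of every gene.

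**Figure D3:**
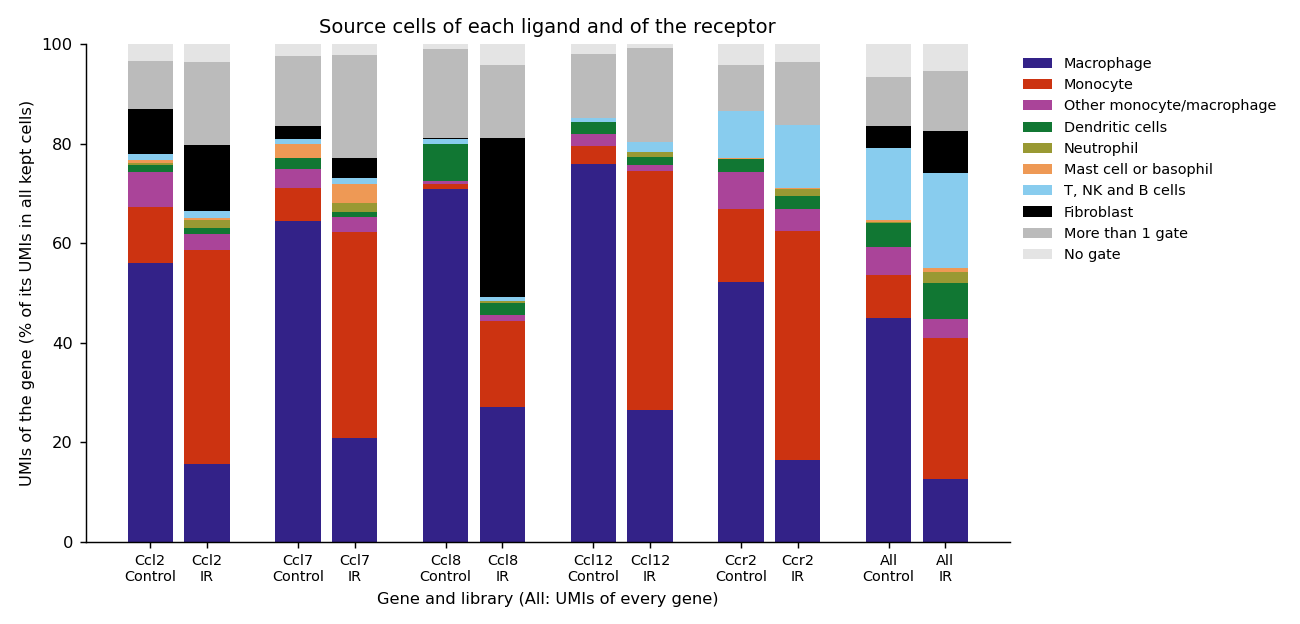
Share of the UMIs of each gene (percent of its UMIs in all kept cells, stacked to 100) by source population in the Control and IR libraries, with the UMIs of every gene at the right for scale. Monocyte includes nonclassical monocytes. For Ccl12 the macrophage part is 76.0% in Control and 26.5% in IR and the monocyte part 3.46% and 48.0%, and the fibroblast part of Ccl8 is 32.1% in IR.

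Ccr2 had another distribution than its ligands. In Control it stood at 689.8 in the monocyte gate, 526 in other monocyte/macrophage cells, 525 in cDC2, 511 in nonclassical monocytes, 467 in the macrophage gate, 329 in NK cells, 195 in T cells, 11.7 in mature dendritic cells and 2.44 in fibroblasts. The 3 values from 511 to 526 did not differ beyond their intervals. In IR it was lower in each of these but mature dendritic cells (18.9), with 477 in the monocyte gate, 376 in the macrophage gate, 341 in cDC2, 217 in NK cells and 139.8 in T cells. The monocyte gate was 1.45-fold lower (1.37 to 1.53), NK cells 1.51-fold (1.38 to 1.66), cDC2 1.54-fold (1.27 to 1.86), T cells 1.40-fold (1.20 to 1.62) and the macrophage gate 1.24-fold lower (1.18 to 1.31). At 1000 UMIs per cell, the monocyte gate had Ccr2 in 47.0% of its cells in Control and 33.4% in IR. Without thinning both shares were about the same, 84.6% and 84.5%, at median depths of 5524 and 8117 UMIs. Mature dendritic cells gave 0.806% and 1.35% at 1000 UMIs, which sets the background. The total of Ccr2 UMIs in the monocyte gate was 2075 in Control and 4128 in IR, 13.9% and 43.0% of all Ccr2 UMIs, in 474 and 922 cells that held 8.08% and 26.1% of the UMIs of every gene.

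By the 2-fold rule, 3 of the 5 members were higher in the IR monocyte gate (Ccl2, Ccl7 and Ccl12) and none lower, beside 0.667% and 0.157% of 10189 genes. In the macrophage gate 1 was higher (Ccl2) and 1 lower (Ccl8), beside 0.838% and 0.362% of 11335 genes. The median log2 ratio of the 5 members was 1.28 in the monocyte gate and 0.37 in the macrophage gate, and that of all tested genes -0.02 and -0.04.

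Within the Control macrophage gate the resident-like subset (207 cells) had the highest level of every ligand: 1337 for Ccl2, 1435 for Ccl7, 2510 for Ccl8 and 841 for Ccl12. The Mmp12 subset (185 cells) followed for Ccl2 at 1154 and Ccl7 at 796. The inflammatory subset (171 cells) was next for Ccl8 at 479.9 and Ccl12 at 435. Of its Ccl8 UMIs, 60.1% came from 3 cells, and without these the level was 200.4. The Dcstamp subset (84 cells) was lowest for all 4, at 247, 210.1, 12.4 and 86.5. Ccr2 was lowest in the resident-like subset (256) and the Mmp12 subset (311) and stood at 582 in the inflammatory and 524 in the Dcstamp subset. IR held 17 resident-like cells. Their ligand levels were 3728 for Ccl2, 4051 for Ccl7, 942 for Ccl8 and 859.7 for Ccl12, but 3 cells held between 66.3% and 79.8% of each, and without the 3 top cells of each gene the values were 2245, 1647, 301 and 259. In the larger remaining macrophage group (869 and 126 cells), Ccl2 was 597 and 1451, Ccl7 382 and 1059, Ccl12 206 and 389 and Ccl8 142 and 16.6. For Ccl12, 47.9% of the IR UMIs came from 3 of 126 cells, and without the 3 top cells of each library the levels were 181 and 213. In the inflammatory subset (171 and 102 cells) Ccl2 was 611 and 1378, a ratio of 2.26 (2.07 to 2.46), while Ccl7 and Ccl12 were lower in IR, with ratios of 0.870 (0.776 to 0.976) and 0.873 (0.768 to 0.991). In the Mmp12 subset (185 and 100 cells) Ccl2 was 1154 and 1304, a ratio of 1.13 (1.06 to 1.21) that turned to 0.905 without the 3 top cells of each library, while the intervals of the ratios of Ccl7 (0.948 to 1.12) and Ccl12 (0.953 to 1.25) held 1. Ccl8 was lower in IR there too, at 141 and 28.5. In the Dcstamp subset (84 and 16 cells) Ccl12 was 0.324 (0.126 to 0.696) of its Control level, where 72 of the 84 Control UMIs came from 1 cell.

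**Figure D4:**
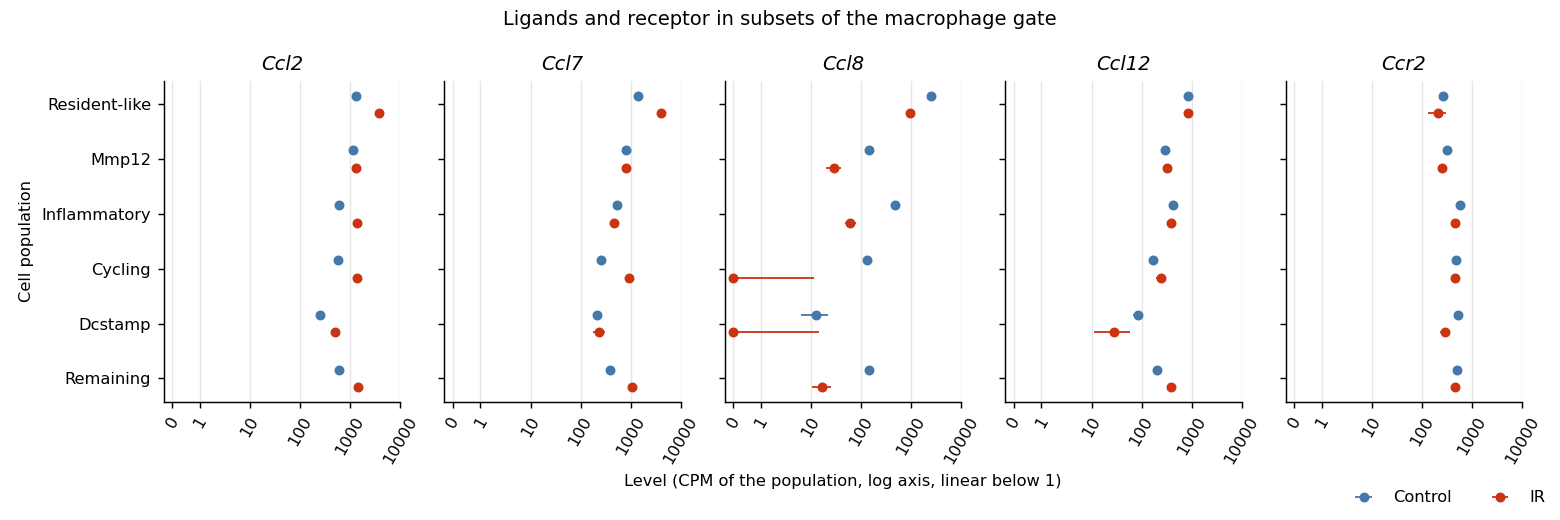
Level of each gene (CPM of the subset, log axis, linear below 1) in 6 subsets of the macrophage gate, Control and IR, with exact Poisson 95% intervals. The resident-like row holds the highest Control point for every ligand (2510 for Ccl8) and the lowest for Ccr2 (256).

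The same cells can be laid out by the share of monocyte-list UMIs in the sum of both lists, from C1q-high to monocyte-like. In Control, Ccr2 went up along this range from 456 in the bin of 0 to 10% to 712 in the bin of 90 to 100%, and Ccl12 went down from 291 to 45.5. In IR Ccl2, Ccl7 and Ccl12 peaked between the ends. Ccl2 was 1047 at the macrophage end, 2063 and 2115 in the middle bins (91 and 84 cells) and 1641 at the monocyte end, and its lowest IR bin was above its highest Control bin, 785. Without the 3 top cells of each bin, the lowest Ccl2 level in IR was 755 and the highest in Control 734, nearly the same. Ccl12 was 247 at the macrophage end, 459 between 50 and 70% and 239 at the monocyte end, and without the 3 top cells of each bin these were 164, 273 and 211. At the macrophage end the Ccl12 intervals of the libraries did not overlap (282 to 300.3 and 224 to 273), with Control higher, while at the monocyte end IR was higher. Ccl8 peaked at 780.0 in the Control bin of 10 to 30% (473 without its 3 top cells), and its 828 IR cells at the monocyte end held 12 UMIs.

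**Figure D5:**
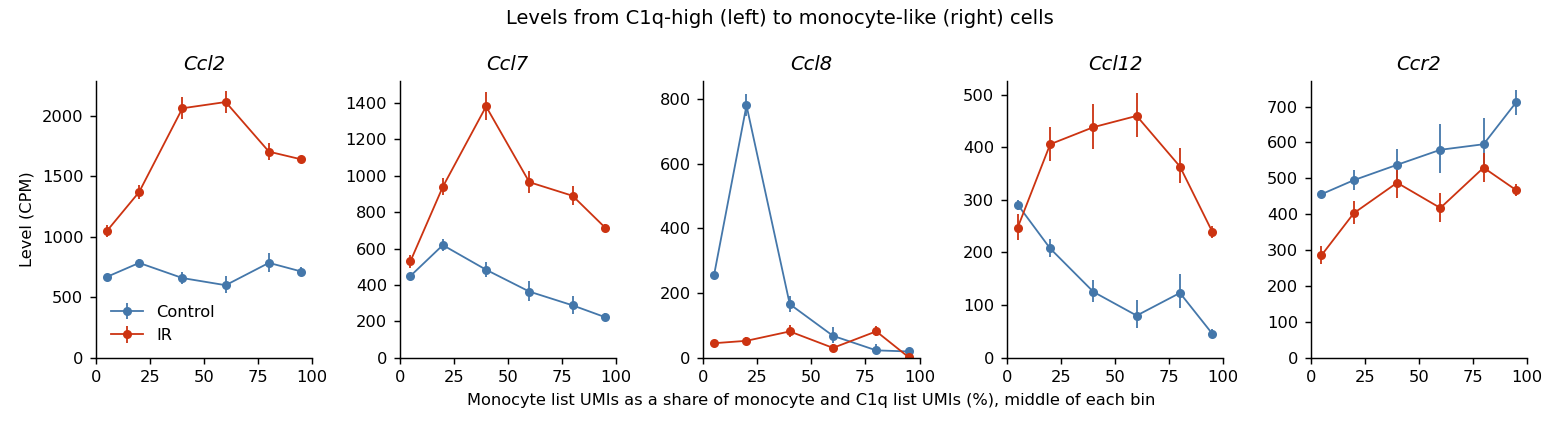
Level of each gene (CPM, linear axes from 0) in 6 bins of the monocyte share of marker UMIs, from C1q-high cells at the left to monocyte-like cells at the right, with exact Poisson 95% intervals. Ccl2 in IR peaks at 2115 in the bin of 50 to 70%, and Ccl12 in Control goes from 291 at the left to 45.5 at the right.

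Ligands were often found in the same cells. In the IR monocyte gate at 1000 UMIs per cell, Ccl7 was found in 192 of 461 cells with Ccl2 (41.6%) and in 37 of 461 cells without it (8.03%), and Ccl12 in 106 (23.0%) and 20 (4.34%). In the Control macrophage gate, Ccl7 was found in 45.2% of Ccl2 cells and 12.2% of the others. Among Control resident-like macrophages, 27.1% had 3 ligands and 7.25% all 4 at this depth, while 12.6% had none. Whether these shares exceed what the share of each ligand alone would give was not tested. In this subset Ccl7 was found in 68.5% of cells with Ccl2 and 43.4% of those without. With and without Ccl8, Ccl2 was found in 55.4% and 49.6% and Ccl12 in 35.9% and 33.0%, with overlapping intervals. For the receptor the shares differed by gate and ligand. In the IR monocyte gate, Ccl2 was found in 51.3% of cells with Ccr2 and 49.3% of those without. In the IR macrophage gate the shares were 54.5% (44.2 to 64.6) and 39.1% (33.3 to 45.2), with overlapping intervals. The Control macrophage gate went the other way, with 29.7% (25.9 to 33.7) of cells with Ccr2 and 37.0% (34.3 to 39.8) of those without. In the Control macrophage gate, Ccr2 was found in 26 of 204 cells with Ccl8 (12.7%) and in 516 of 1555 without it (33.2%). These shares describe cells of 1 library, which also differ in subset.

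Of 10 other CC chemokines listed beside the members, 8 had 20 UMIs in the monocyte gate. Ccl3 (161 and 361), Ccl4 (287 and 862) and Ccl17 (28.3 and 74.7) were past 2-fold higher in IR and Ccl24 (90.7 and 25.4) past 2-fold lower. CCL3 signals through CCR1 among other receptors. In the macrophage gate Ccl3 (96.1 and 280.5) and Ccl4 (196 and 611) were past 2-fold higher and none of 8 lower. Of 7 other receptors and scavengers, 3 were measured in each gate. None passed 2-fold in the monocyte gate, where Ccr1 was 293 and 420.0. In the macrophage gate, Cx3cr1, the fractalkine receptor of patrolling monocytes and tissue macrophages, was 159 and 42.4, the 1 gene past 2-fold. Ccr8, the other receptor of mouse CCL8, had 35 and 25 UMIs over all kept cells, and the scavengers Ackr1 (6 and 2) and Ackr2 (1 and 0) were near 0. None of 10 genes of the CCR2 signal relay (Gnai2, Gnai3, Gnb1, Arrb2, Grk2, Pik3cg, Pik3r5, Rac2, Nup85 and Jak2) passed 2-fold in either gate. Of all genes tested, 0.667% were higher and 0.157% lower in the monocyte gate, and 0.838% and 0.362% in the macrophage gate. With shares this small, none of 10 says little about the relay. Gnai2, the inhibitory G protein subunit used by CCR2, was 1142 and 1219 in the monocyte gate, and Rac2 203 and 274.

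Across 37 population and library sums, and over 3987 genes with at least 100 CPM in one of them, Pearson's r of log2 levels plus 10 was used to find genes of like pattern. These sums share 2 libraries, so r is a description. For Ccl2 the closest were Ier3 (0.84), Lamp2, Fndc3b, Fos and Fam129b, and for Ccl7 they were C3ar1 (0.84), Slc7a8, Tollip, Glul and Rbfa. Ccl2 and Ccl7 reached 0.77 with each other. For Ccl8 the closest were Fcna (0.80), Folr2 (also a marker of the resident-like subset), Rgl1, Igf1 and Gas6. For Ccl12 they were Ms4a7 (0.87), Pf4, Trem2, Msr1 and Ch25h. For Ccr2 4 of the 5 closest were Pycard (0.88), Dok2, Itgb2 and Tm6sf1, and its r with the ligands ran from 0.19 (Ccl8) to 0.59 (Ccl12).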

How the data were processed

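Single-cell RNA sequencing covered CD45+ cells of 1 Control and 1 IR library (10x 3′ chemistry). Raw UMI counts of each gene in each barcode were deposited, made with Cell Ranger 6.0.1 on mm10 per the submitters' notes, while the matrix headers name Cell Ranger 4. The Control matrix summed to 48593879 UMIs and the IR matrix to 42406461. Barcodes with at least 1000 UMIs (4975 and 3507, of which 7 barcode sequences were shared), 200 genes and at most 25% mitochondrial UMIs were kept, and then the top 6% by Scrublet score (in Scanpy 1.11.5) were left out. The study used DoubletFinder, which was not used here.

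Cells were gated on marker UMIs per 10000 UMIs of the cell: T 10, NK 4, B 5, neutrophil 50, mast cell or basophil 5, cDC1 2, cDC2 6, mature DC 20, pDC 3, fibroblast 10, endothelial 5, tumor 3 and monocyte/macrophage 40, with 2 or 3 markers detected. Subset thresholds were 15 (resident-like, cycling), 8 (Dcstamp), 60 (Mmp12) and 6 (inflammatory). Thresholds were set after the score distributions were seen. The members, lists and alternatives were chosen with earlier results of these data known.

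Counts were summed per population. Each group had 1 library, so nothing was tested and no p-values exist. Shares carry exact Clopper-Pearson and ratios exact conditional 95% intervals (SciPy 1.17.1). Named genes were the members, the 3 lists and the 5 genes most like each member. Of these, 1 gene is not reported here. Of the listed genes, those with at least 20 UMIs in a population counted as measured. Empty droplets were ranks 45001 to 90000. Scripts were tested on simulated data. TMM factors came from edgeR 4.0.16 (R 4.3.3). Positions are from GENCODE vM21, and promoters from RefSeq, which held 2 of the 4 ligands.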

Additional observations from a re-analysis of the deposited data

Results flagged for a closer look

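Several members had ratios in opposite directions in different populations of at least 50 cells per library, with counting intervals that excluded 0 on both sides. The difference between populations was not tested, since each ratio compares 1 library with 1 library. Ccl8 in fibroblasts had a log2 ratio of 3.02, IR over Control, against -0.67 in the monocyte gate, -2.58 in the macrophage gate and -9.35 in cDC2, the last resting on 1 IR UMI and, in Control, on a few cells. Ccl7 had log2 ratios of 1.77 in the monocyte gate, 0.86 in the macrophage gate, 0.86 in other monocyte/macrophage cells, 1.28 in T cells and 0.36 in fibroblasts, against -0.72 in nonclassical monocytes and -1.03 in cDC2. The nonclassical value turned without the 3 cells with most Ccl7 UMIs in each library (49.9 CPM in Control and 84.0 in IR). The T cell levels were low, 38.3 CPM in Control and 93.2 in IR, and 23.4 and 41.3 without those 3 cells. Empty droplets held 365 and 581 CPM of Ccl7, and the part of free RNA in the T cell ratio was not tested. Ccl12 had log2 ratios of 2.19 in the monocyte gate and 0.38 in the macrophage gate, against -0.53 in other monocyte/macrophage cells. That last value rested on 147 Control and 61 IR UMIs, of which 3 cells held 68.0% and 68.9%. Without these cells the levels were 22.7 CPM in Control and 15.4 in IR, from 47 and 19 UMIs. Without the 3 cells with most Ccl12 UMIs in each library, the macrophage-gate levels were 252 CPM in Control and 282 in IR.

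Droplets without a cell, used only as a background for Ccl8 and in the subtraction of free RNA, carried more of 2 ligands in the IR library than in Control. Ccl2 stood at 1125 CPM against 642, and Ccl7 at 581 against 365. Both differences had the direction seen in the cells, and the part of free RNA in the cell values was not tested beyond the subtraction given with the alternatives.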

How the results depend on the processing

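No paired analysis was possible because each group had a single library. Of 199 recomputed log2 ratios, 154 stayed inside the counting interval of the main value and 186 kept its sign. The count of genes past 2-fold stayed within 1.5 times in all 24 recomputed counts of the members and the 3 lists. These recounts changed only the minimum of UMIs per gene (100 or none), which every called gene passed, so they could hardly move a call. Calls were not recounted under the other alternatives. The log2 ratio of Ccl2 fell below 1 in the macrophage gate without a doublet caller, with stricter thresholds and at 2000 UMIs (0.98), and over all cells at 500 UMIs. TMM scaling left all 15 of its ratios inside their intervals. The cause of the moves below was not tested. In the monocyte gate, stricter thresholds gave log2 ratios of 1.40 for Ccl2 and 1.92 for Ccl7, a gate without Ly6c2 and Ms4a4c 1.38 for Ccl2 and 2.45 for Ccl12, and subtraction of free RNA 1.90 for Ccl7 and 2.73 for Ccl12. Ccl8 there was -1.67 at 500 UMIs and -1.09 with mixed cells counted in. In the macrophage gate Ccl2 was 0.97 without a doublet caller, 0.97 with stricter thresholds and 1.12 with the other monocyte gate, and Ccl7 0.80 with stricter thresholds. Over all cells Ccl2 was 0.997 at 500 UMIs and 1.06 with free RNA subtracted, Ccl7 0.78 at a 10% mitochondrial limit and 0.73 without a doublet caller, and Ccl12 0.16 at the 10% limit. Ccl8 over all cells was -3.30 at 500 UMIs, -3.16 at 2000 UMIs and -2.78 with free RNA subtracted.

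The small gates moved more. In fibroblasts Ccl2 was 0.44 at 500 UMIs, 0.90 at 2000 UMIs, 0.38 without a doublet caller and 1.12 without the 3 cells with most UMIs of the gene, an alternative chosen after seeing the data. Ccl7 there was 0.11, 0.60, 0.090 and 0.68 in the same order, and Ccl8 1.89 at both 500 and 2000 UMIs. In the resident-like subset Ccl8 was -1.03 and Ccl12 -0.70 at 500 UMIs, and without the 3 top cells Ccl2 was 0.96, Ccl7 0.34, Ccl8 -2.64 and Ccl12 -1.38. The mast cell or basophil gate reversed: against main values of -0.71 and -0.20, Ccl2 and Ccl7 were 0.44 and 0.37 at 500 UMIs, 0.49 and 0.54 at the 10% mitochondrial limit, 0.51 and 0.54 without a doublet caller, and 1.10 and 0.22 without the 3 top cells, and Ccl7 was -0.40 with mixed cells counted in. Subtraction of free RNA gave no value for Ccl8 in the monocyte gate and fibroblasts, where the Control level fell below 0. The assumed 10% was thus more than these gates held, and their other subtracted ratios rest on the same share.

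The share of UMIs in the monocyte/macrophage class moved under the source alternatives. For Ccl2 it was 73.2% in Control and 62.7% in IR at 500 UMIs, 70.4% and 56.9% without a doublet caller, 80.5% and 72.1% with mixed cells counted in, and 72.7% and 63.2% with stricter thresholds. For Ccl7 it was 73.8% in Control at 500 UMIs, 72.5% and 58.5% without a doublet caller, 83.6% and 77.4% with mixed cells, and 68.8% in IR with stricter thresholds. For Ccl8 it was 71.2% in Control at 500 UMIs, 70.8% and 38.9% without a doublet caller, 87.5% and 54.1% with mixed cells, and 80.8% and 50.4% with stricter thresholds. For Ccl12 it was 80.3% and 69.1%, 91.3% and 88.6%, and 85.2% and 82.3% under the last 3 settings. The fibroblast share of Ccl8 was 0.473% in Control at 500 UMIs, 0.415% and 40.2% without a doublet caller, and 22.9% in IR with stricter thresholds. Without thinning, the difference in the share of monocyte-gate cells with a UMI, IR minus Control, was 21.3 percentage points for Ccl7, -6.90 for Ccl8, 24.7 for Ccl12 and -0.109 for Ccr2, and -15.9 for Ccl8 in the macrophage gate. At 2000 UMIs it was -3.34 for Ccl8 and 13.9 for Ccl12 in the monocyte gate. With a pseudocount of 1, 3 of the 5 genes most like Ccl8, 2 of those for Ccl12 and 3 of those for Ccr2 were the same.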
